A study of Mus musculus with 3 samples.

Results

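The 10 hnRNP genes described here were Hnrnpa1, Hnrnpa2b1, Hnrnpa3, Hnrnpc, Hnrnpf, Hnrnph1, Hnrnpk, Hnrnpl, Hnrnpm and Hnrnpu, taken by symbol from 55536 annotated genes, and all 10 were found. Their RNA was measured in 3 total RNA-seq libraries, depleted of ribosomal RNA, from the chromatin fraction of bone-marrow-derived macrophages (BMDM) of C57BL/6J mice given 100 ng/ml Lipid A for 60 minutes. Lipid A, the lipid anchor of bacterial lipopolysaccharide, is sensed through Toll-like receptor 4. The libraries form 1 group, and replicates 1, 2 and 3 were made from 1 µg, 250 ng and 500 ng of RNA. No unstimulated sample was analysed here, so every value is a level after stimulation, and no value is a response to Lipid A. All 3 libraries carry the same donor entry, so the spread between them, on which every p-value rests, may be technical.

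Heterogeneous nuclear ribonucleoproteins (hnRNPs) are RNA-binding proteins that coat nascent transcripts in the nucleus and steer splicing, polyadenylation, export and decay. Many of their own pre-mRNAs are spliced into forms that make no full-length protein, through kept introns or through exons that bring in an early stop codon, and several hnRNPs are known to lower their own output this way. Nonsense-mediated decay (NMD) is the cytoplasmic pathway that destroys mRNAs with a stop codon far upstream of a splice junction. The annotation sorts isoforms into coding, retained-intron (holding intron sequence and given no reading frame), NMD and processed-transcript (given no reading frame) classes. The chromatin fraction holds transcripts whose splicing is unfinished, and an intron still to be removed cannot be told apart from a retained one in these tables.

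Expected counts on annotated genes were 13318395, 15352661 and 15812581 in replicates 1, 2 and 3, of which the 10 hnRNP genes took 0.271% ± 0.0181 (SD, n = 3). All 7 macrophage markers checked were detected, with summed levels of 767 to 951 TPM, a level per length that sums to the same total in every library. Of the T cell, B cell, neutrophil, erythroid and fibroblast markers none reached 1 TPM in all libraries, and no such list summed to more than 1.96 TPM. The median detected coding gene stood 0.31 lower on the log2(TPM + 1) scale in replicate 1 than in the other libraries, and 0.24 and 0.07 higher in replicates 2 and 3. The same shift, taken in each of the 10 hnRNP genes, had a median of -0.25, 0.18 and -0.01, and its part in the values below was not tested.

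All 10 genes were among the more abundant coding genes of the chromatin fraction. The median hnRNP gene stood at 119 TPM ± 6.48, against 8.14 TPM ± 1.23 for the median of 7862 nuclear coding genes detected at 1 TPM or more in every library (SD, n = 3 each). Their places among those genes ran between the 82.3rd percentile for Hnrnpf and the 99.6th for Hnrnpa2b1. The other 22 hnRNP-family genes had a median of 22.2 TPM ± 2.66. Among these, Hnrnpll stood at 240.4 TPM ± 61.6, Pcbp2 at 92.6 ± 4.47, Ptbp3 at 80.8 ± 4.82, Hnrnpdl at 80.6 ± 10.2 and Hnrnph3 at 76.7 ± 17.3.

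Levels of the hnRNP genes covered a 15.3-fold range. Hnrnpa2b1 was highest with 451.2, 503.3 and 530.9 TPM in replicates 1, 2 and 3. Hnrnpk had 240.4, 255 and 238.6 TPM, and Hnrnph1 had 200.7, 273.2 and 235 TPM. These last 2 did not differ beyond their spread, since the sign of the log2 difference changed between libraries. Hnrnpm followed with 150.6, 173.7 and 187 TPM. Hnrnpa3 had 138.7, 109.7 and 135.2 TPM, and Hnrnpu had 109.3, 114.5 and 109.6 TPM, a second pair of neighbours that did not differ beyond their spread. Hnrnpl (66.2, 93 and 70 TPM), Hnrnpc (47.3, 67.6 and 55.4), Hnrnpa1 (45.3, 57.7 and 50.4) and Hnrnpf (25.7, 38.8 and 32.9) came lowest. Of 9 neighbouring pairs in this order, 7 kept the same sign in every library with a mean difference above its SD; the exact two-sided sign-flip permutation p was 0.25 for each of the 7, the smallest that 3 libraries allow. With the second set of deposited isoform estimates, summed per gene, 6 of 10 genes kept their rank and the levels were 0.92 to 1.67 times those above, highest for Hnrnpf.

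**Figure D1:**
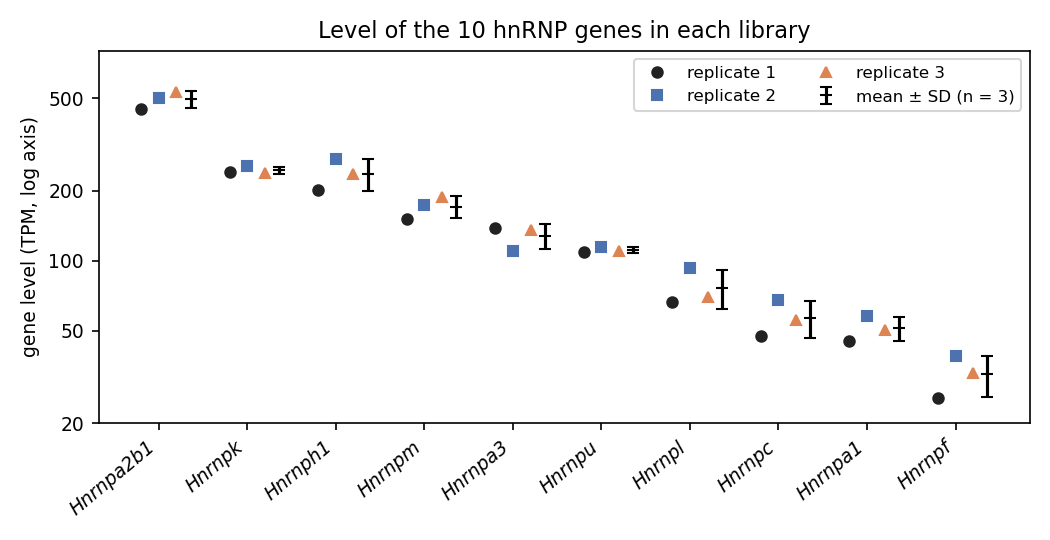
Gene level in TPM on a log axis (y) of the 10 hnRNP genes in descending order (x), with 1 symbol per library and the mean ± SD beside them (n = 3). Hnrnpa2b1 stands above all others in each library, and the points of Hnrnpk and Hnrnph1 overlap.

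In counts scaled with edgeR's TMM factors, replicate 2 was the lowest library for the 6 most abundant members. The deviations of a gene from its own mean over libraries were smallest among these 6 for Hnrnph1, at 0.06, -0.06 and -0.0019 (log2) in replicates 1, 2 and 3. Hnrnpm deviated by 0.21, -0.22 and 0.01, Hnrnpa2b1 by 0.17, -0.20 and 0.03, and Hnrnpk by 0.21, -0.14 and -0.08. With counts scaled by their totals, replicate 2 was lowest for 2 of the 6, Hnrnpa2b1 and Hnrnpm, and replicate 3 for the other 4. In the TMM-scaled counts Hnrnpc stayed within 0.0702 between its lowest and highest library. The coefficient of variation that edgeR estimated for the 10 genes was 0.144 to 0.165, with a median of 0.15, against 0.175 for the median of 12505 genes. Those 12505 genes were not matched to the 10 in level. The median of the 10 was 0.115 without replicate 2 and 0.197 without replicate 3, where that of all genes kept was 0.128 and 0.207.

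By class, and summed over the 10 genes, most hnRNP RNA on chromatin was assigned to isoforms that are not annotated as coding. Over the 10 genes together, retained-intron isoforms held 43.0% ± 1.26 of TPM, NMD isoforms 5.99% ± 0.342, processed transcripts 16.1% ± 2.67 and coding isoforms 34.9% ± 2.47. Over all other nuclear coding genes the same shares were 39.4% ± 1.67, 3.59% ± 0.218, 8.85% ± 0.229 and 48.2% ± 1.502 (SD, n = 3 libraries). Single genes weighed heavily in the sums over the 10 genes. Hnrnph1 held 217.1 of the 260.1 TPM of processed transcripts, and 6754 of their 7428 expected counts. Hnrnpa2b1 held 301.9 of the 689 TPM of retained-intron isoforms. In Hnrnpa3, Hnrnpc and Hnrnpf coding isoforms held most of the TPM, at 78.0%, 82.6% and 100%. In the second isoform table the processed-transcript shares lay closer together, at 17.8% ± 0.633 for the 10 genes and 16.0% ± 0.126 for the other coding genes. TPM divides by length, and the annotated retained-intron isoforms of these genes had a median length of 735 bases against 1683 for coding ones. In expected counts, which are not divided by length, retained-intron isoforms of the 10 genes held 26.6% ± 0.911 and coding isoforms 47.0% ± 1.12, against 26.1% and 67.4% over other coding genes.

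**Figure D2:**
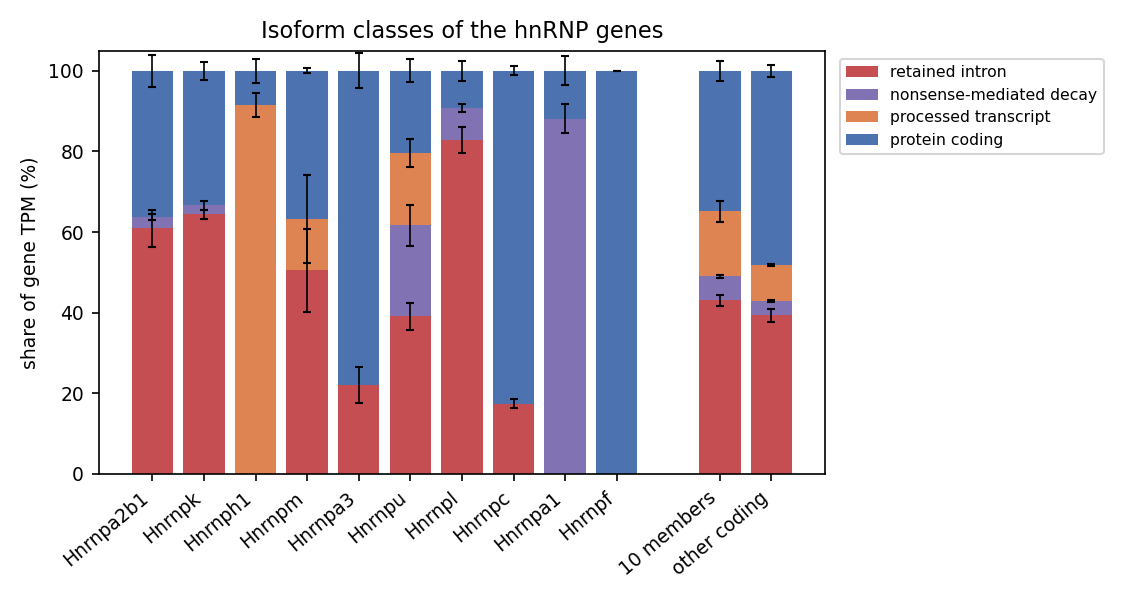
Share of each gene's TPM in percent (y) held by 4 annotated isoform classes, for the 10 hnRNP genes in descending order of level, for their sum and for all other nuclear coding genes (x). Bars are means of 3 libraries and the error bar at the top of each segment is the SD of that segment's share. Hnrnpl is mostly retained intron, Hnrnph1 mostly processed transcript, Hnrnpa1 mostly NMD, and Hnrnpf has coding isoforms only.

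The ratio of retained-intron to coding TPM was tested in each gene against an equal level, with limma on log2 of the ratio after adding 0.5 TPM to both and Benjamini-Hochberg adjustment over 5601 genes. Hnrnpa1, Hnrnpf and Hnrnph1 have no annotated retained-intron isoform, which left 7 hnRNP genes. Retained-intron isoforms were higher in 5 of these and lower in 2 at an adjusted p under 0.05, where 35.5% of all tested genes were higher and 31.9% lower. The median log2 ratio was 0.75 over the 7 and 0.08 over all 5601. On expected counts the calls among the 7 were 2 higher, Hnrnpl and Hnrnpa2b1, and 5 lower, where 22.9% of 6426 genes were higher and 58.7% lower. Of the other family genes 14 were tested: 4 were higher, among them Hnrnpll at 4.18, Ptbp1 at 1.09 and Hnrnph3 at 0.49, 4 were lower, the most negative 3 being Hnrnpul1 at -0.83, Hnrnpdl at -0.53 and Syncrip at -0.46, and 6 passed in neither direction.

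The ratio of NMD to coding TPM could be tested in 5 hnRNP genes among 2450 genes. It was higher in Hnrnpa1 and lower in Hnrnpa2b1 and Hnrnpk, where 5.55% of all tested genes were higher and 77.2% lower. Hnrnpu and Hnrnpl passed in neither direction. In the family list, NMD isoforms were higher than coding ones in 2 of 10 genes, Hnrnpll at a log2 ratio of 2.20 and Hnrnpd at 0.72, and lower in 7, the most negative being Ptbp3 at -6.38, Hnrnph3 at -4.59 and Syncrip at -2.61.

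**Figure D3:**
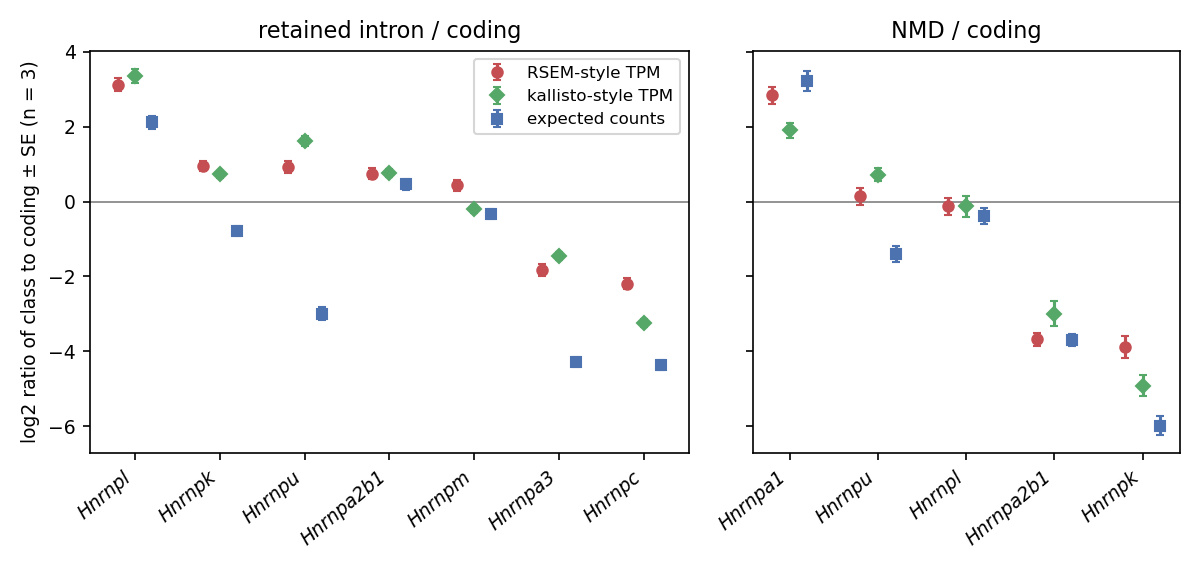
Log2 ratio of retained-intron to coding isoforms (left, 7 genes) and of NMD to coding isoforms (right, 5 genes), as the mean ± SE of 3 libraries, from the TPM of the first isoform table, the TPM of the second and the expected counts of the first. Hnrnpl is above 0 in all 3 on the left and Hnrnpa1 in all 3 on the right, while Hnrnpk and Hnrnpu are above 0 by TPM and below 0 by counts on the left.

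Hnrnpa1, Hnrnpa2b1 and Hnrnpa3 are the A/B-type members, which carry a pair of RNA recognition motifs and a glycine-rich tail. Hnrnpa1 (mm10 chromosome 15, 103240432 to 103246692, plus strand) encodes a repressor of many splice sites. Its NMD isoforms held 38.2, 52.6 and 44.9 TPM in replicates 1, 2 and 3, and its coding isoforms 7.15, 5.07 and 5.54 TPM. The NMD class was higher in every library, with a log2 ratio of 2.83 ± 0.24 (SE, limma adjusted p = 8.46e-05). Hnrnpa1-203 stood at 24.5 TPM ± 2.18 and Hnrnpa1-204 at 20.7 ± 6.06, both above the coding Hnrnpa1-202 at 5.92 ± 1.09. The reading frame of Hnrnpa1-203 is as long as that of Hnrnpa1-202 (960 bases) and that of Hnrnpa1-204 as long as the longest coding one (1119 bases).

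Hnrnpa1 also shares more sequence with other loci than most members. Of its distinct 31-base words, 29.9% occur in transcripts of 26 other genes, 25 of them pseudogenes, and in its coding isoforms the share was 49.4%. Pseudogenes sharing words with it held 7.38% ± 2.36 of its own count, or 75, 143 and 148 counts, of which Gm10052, a processed pseudogene, had 25, 93 and 85. Reads could have been split wrongly between these copies.

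Hnrnpa2b1 (chromosome 6, 51460932 to 51469894, minus strand) encodes a protein that guides mRNA transport and binds methylated RNA. Its retained-intron isoforms held 260.7, 333.2 and 311.8 TPM, and its coding isoforms 177.6, 159.8 and 200.5 TPM. The retained-intron class was above the coding one in each library, at a log2 ratio of 0.75 ± 0.15 (SE, limma adjusted p = 0.00272). Its NMD isoforms were low, at 13.9 TPM ± 4.19, and lower than coding ones at a log2 ratio of -3.67 (limma adjusted p = 1.41e-05). The highest single isoform of all 10 genes was its Hnrnpa2b1-208, of 766 bases, with 115.2, 143.1 and 145.7 TPM, which keeps the last intron, a stretch after the stop codon. Hnrnpa2b1-211, also in the retained-intron class, had 94.1 TPM ± 11.7 and the leading coding isoform, Hnrnpa2b1-202, had 69.4 ± 12.5. Hnrnpa2b1-211 lies wholly beyond that last intron and neither keeps nor enters an intron of Hnrnpa2b1-203, the coding isoform with the longest frame. Of its 1554 bases, 704 are in no coding isoform. Hnrnpa2b1-208 and Hnrnpa2b1-211 together held most of the class mean of 301.9 TPM, so this ratio mainly reflects RNA after the stop codon.

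Hnrnpa3 (chromosome 2, 75659261 to 75669407, plus strand), a close relative, went the other way. Its single retained-intron isoform, Hnrnpa3-205, held 23.9, 28.1 and 31.5 TPM, and its coding isoforms 114.9, 81.5 and 103.7 TPM. The log2 ratio was -1.82 ± 0.17 (SE, limma adjusted p = 2.71e-05). Its leading coding isoforms were Hnrnpa3-206 at 31.8 TPM ± 3.09 and Hnrnpa3-203 at 29.2 ± 6.91. Its next isoform, Hnrnpa3-207, had 43.7, 7.61 and 24.2 TPM in the first table and 0.0141 on average in the second. Hnrnpa3 shares 28.1% of its 31-base words with 54 other genes. The share was 72.6% in its retained-intron isoform and 28.6% in its coding isoforms. The 46 pseudogenes among the 54 genes held 833, 863 and 1050 counts, which is 24.7% ± 3.88 of the Hnrnpa3 count.

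Hnrnpc (chromosome 14, 52073377 to 52104028, minus strand) encodes a protein that binds uridine tracts and packages nascent RNA. Its retained-intron isoforms held 8.11, 12.6 and 9.1 TPM and its coding isoforms 39.2, 55 and 46.3 TPM, the lowest ratio of the 7 genes at -2.19 ± 0.14 (SE, limma adjusted p = 3.46e-06). Its leading isoforms were all coding: Hnrnpc-210 at 20.7 TPM ± 3.66, Hnrnpc-201 at 8.78 ± 0.15 and Hnrnpc-213 at 8.68 ± 3.82. The annotated frame of Hnrnpc-213 has 84 bases, against 939 for the longest. In the second isoform table Hnrnpc-210 was also highest, at 20.3 TPM, but Hnrnpc-201 had 4.79. There Hnrnpc-203 and Hnrnpc-202, both coding, had 17.4 and 15.5 TPM, against 1.64 and 1.66 in the first.

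Hnrnpf and Hnrnph1 encode relatives that bind runs of guanine. Hnrnpf (chromosome 6, 117900324 to 117925622, plus strand) has 10 annotated isoforms, all coding, of which 5 had a level above 0. Most of it was Hnrnpf-210, a transcript of a single exon, with 16.3, 28.3 and 20.1 TPM, ahead of Hnrnpf-204 at 4.58 TPM ± 2.13 and Hnrnpf-202 at 3.07 ± 0.312. It shares 66.2% of its 31-base words with 11 other genes, the largest share among the members, although the 7 pseudogenes among them held 0, 17 and 0 counts. 2 unspliced loci on the opposite strand lie inside it, 4933440N22Rik at 10.04 TPM ± 3.09 and Gm43863 at 11.6 ± 2.99. With a strand setting not given in the sources used here, their reads cannot be told apart from those of Hnrnpf introns.

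Hnrnph1 (chromosome 11, 50376990 to 50386528, plus strand) has 15 processed transcripts and 3 coding isoforms. The processed transcripts held 177.2, 256.2 and 217.9 TPM and the coding isoforms 23.5, 17.0 and 17.1 TPM. This gene could not enter either of the tests above, so all isoforms that are not coding were summed and tested in the same way, a comparison added after values were seen. The log2 ratio for Hnrnph1 was 3.47 ± 0.19 (SE, limma adjusted p = 2.91e-06). Its leading isoforms, all processed transcripts, were Hnrnph1-204 at 57.0 TPM ± 3.79, Hnrnph1-212 at 42.2 ± 8.59 and Hnrnph1-207 at 41.1 ± 18.0. In this added test 7 of 9 hnRNP genes were higher and 2, Hnrnpa3 and Hnrnpc, lower, where 35.9% of 7349 genes were higher and 31% lower. On expected counts the calls were 4 higher, Hnrnpa1, Hnrnpa2b1, Hnrnph1 and Hnrnpl, and 4 lower, where 21.5% of 8565 genes were higher and 59.1% lower. The second isoform table gave 6 higher, since Hnrnpm did not pass there (0.04, limma adjusted p = 0.703), where 52.5% of 9452 genes were higher.

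Hnrnpk (chromosome 13, 58391142 to 58403343, minus strand) encodes a protein of KH domains that binds cytosine-rich stretches. Its 13 retained-intron isoforms held 157.9, 162.6 and 152.2 TPM and its 18 coding isoforms 74.1, 88 and 82.9 TPM, a log2 ratio of 0.95 ± 0.13 (SE, limma adjusted p = 0.000319). On expected counts the ratio was -0.78 (limma adjusted p = 0.000417). Its NMD isoforms held 5.42 TPM ± 2.59 and were lower than coding ones at -3.88 (limma adjusted p = 5.55e-05). Of the 31-base words in these NMD isoforms, 77.6% occur in other genes, against 30.3% in the coding isoforms. The 3 pseudogenes that share words with Hnrnpk held 93, 84 and 100 counts in replicates 1, 2 and 3. The part of wrongly split reads in this ratio was not tested. Its highest isoform was Hnrnpk-204 of the retained-intron class at 49.2 TPM ± 3.66, and the coding Hnrnpk-210 stood at 23.3 ± 5.598. The microRNA gene Mir7-1, which lies inside Hnrnpk on the same strand, was listed at 0 in all libraries, and the opposite-strand neighbour Rmi1, which overlaps its 5′ end, stood at 6.95 TPM ± 0.711.

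Hnrnpl (chromosome 7, 28808541 to 28822266, plus strand) encodes a protein that binds CA repeats and is known to control its own pre-mRNA through an exon with an early stop codon in its intron 6. Its retained-intron isoforms held 55.6, 79.3 and 55.4 TPM and its coding isoforms 5.89, 6.33 and 8.18 TPM. This was the highest ratio of the 7 genes, 3.12 ± 0.18 on the log2 scale (SE, limma adjusted p = 2.48e-06), and 98.2% of the 5601 genes had a lower one. On expected counts it was 2.11 (limma adjusted p = 1.09e-06). Its leading isoforms were Hnrnpl-206 at 19.2 TPM ± 4.33, Hnrnpl-208 at 16.4 ± 4 and Hnrnpl-205 at 15.1 ± 6.09, all in the retained-intron class.

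Most Hnrnpl RNA was assigned to isoforms that hold sequence of intron 6, which spans 3108 bases (28815353 to 28818460). Such isoforms numbered 5 and held 37.4, 64.5 and 46.2 TPM, which is 63.9% ± 6.69 of the gene, and isoforms that splice the intron out whole held 7.85, 9.23 and 10.5 TPM. The exon inside this intron is 70 bases long (28817335 to 28817404) and is present whole in 2 isoforms, the NMD isoform Hnrnpl-213 at 6.21 TPM ± 1.36 and the retained-intron isoform Hnrnpl-207 at 8.86 ± 2.49. Together these 2 made 19.6% ± 1.21 of the gene's TPM. The reading frame of Hnrnpl-213 ends in this exon after 603 annotated coding bases, where the longest annotated frame has 1843. The annotated Hnrnpl-213 begins only at 28813345, inside the stretch of that longest frame. These lengths therefore do not show how far the stop codon shortens the frame. NMD and coding isoforms of Hnrnpl were at similar levels, 6.21 and 6.80 TPM, with a log2 ratio of -0.13 ± 0.23 (SE, limma adjusted p = 0.615). The sequence is shown because it carries that stop codon. It runs 5′ to 3′ on the plus strand, chr7:28817335-28817393, read from the annotated transcript, with the stop codon in capitals.
Hnrnpl-213 exon to its stop codon: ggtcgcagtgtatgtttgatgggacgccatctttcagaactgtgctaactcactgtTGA

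Hnrnpm (chromosome 17, 33646233 to 33686860, minus strand) encodes a protein that binds GU-rich RNA and is known in mouse macrophages to restrain splicing of innate immune transcripts such as Il6. Its retained-intron isoforms held 94.0, 76.8 and 84.2 TPM and its coding isoforms 56.3, 63.7 and 67.5 TPM. The log2 ratio of 0.44 ± 0.15 (SE, limma adjusted p = 0.0271) was the smallest of the 5 that passed. The call was lost without replicate 1 (0.29, limma adjusted p = 0.26) and without replicate 3 (0.50, limma adjusted p = 0.0681), and the sign turned in the second isoform table (-0.20, limma adjusted p = 0.0973) and on expected counts (-0.33, limma adjusted p = 0.0407). The leading isoforms were Hnrnpm-208 at 34.1 TPM ± 6.71 and Hnrnpm-203 at 28.1 ± 1.25, both in the retained-intron class, and the coding Hnrnpm-202 at 24.8 ± 2.55. The processed transcript Hnrnpm-209 had 0.32 TPM in replicate 1 and 33.2 and 35.4 in replicates 2 and 3.

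Hnrnpu (chromosome 1, 178321108 to 178337797, minus strand) encodes the scaffold attachment factor, which binds both DNA and RNA and holds Xist on the inactive X chromosome. Its retained-intron isoforms held 46.8, 43.7 and 39.6 TPM, its NMD isoforms 24.8, 20.1 and 30.3 TPM, and its single coding isoform, Hnrnpu-201, 18.7, 25.9 and 23.3 TPM. The retained-intron class was higher than the coding one at a log2 ratio of 0.93 ± 0.16 (SE, limma adjusted p = 0.000943), and the NMD class passed in neither direction at 0.14 ± 0.23 (SE, limma adjusted p = 0.597). In the second isoform table the NMD class was higher, at 0.72 (limma adjusted p = 0.0135). On expected counts both ratios were below 0, at -2.99 (limma adjusted p = 9.71e-08) and -1.39 (limma adjusted p = 0.00292). The coding isoform is 7640 bases long, while the leading retained-intron isoform, Hnrnpu-202 at 36.5 TPM ± 3.04, has 673. The NMD isoform Hnrnpu-206 stood at 24.4 TPM ± 4.59, and Hnrnpu-203, a processed transcript, had 7.22 TPM in the first table and 53.1 in the second.

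Retained-intron annotation does not always mean a whole intron. Of 35 such isoforms of the 10 genes, 33 hold bases that no coding isoform has. Of the same 35, 12 keep at least 1 whole intron of the reference coding isoform (that with the longest reading frame) and 21 only run into an intron. The 12 and 21 are not a split of the 33. Hnrnpa2b1-211 holds such bases but touches no reference intron, Hnrnpc-212 runs into an intron without such bases, and Hnrnpu-207 does neither. Among 109 introns of the reference isoforms, 16 were kept whole by some annotated isoform, in Hnrnpa2b1, Hnrnpa3, Hnrnph1, Hnrnpk and Hnrnpl. Isoforms keeping 1 or more introns whole held 29.2% ± 1.38 of the 10 genes' TPM, 25.5% ± 0.488 in the second table and 27.2% ± 1.10 of expected counts (SD, n = 3). The share was 66.3% ± 2.73 in Hnrnph1, 47.0% ± 5.34 in Hnrnpa3, 35.0% ± 2.12 in Hnrnpa2b1, 30.4% ± 1.49 in Hnrnpk and 5.04% ± 0.143 in Hnrnpl. More of the Hnrnpa3 share came from the coding isoform Hnrnpa3-206 (31.8 TPM), which keeps intron 10, than from Hnrnpa3-205 (27.8 TPM). The Hnrnpa3 share was 67.0% in the second table and 12.6% of expected counts, the Hnrnpk share 17.5% of expected counts, and the Hnrnpl share 7.65% in the second table and 3.30% of expected counts. These are sums of isoform estimates, not counts of reads over a junction.

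For each kept intron the TPM of isoforms that keep it was set beside that of isoforms that splice exactly this intron. Isoforms that remove the intron through other splice sites were in neither sum. In Hnrnph1, introns 4 and 5 (1494 and 939 bases) are kept together by the same isoforms, which had 64.8, 85.0 and 81.3 TPM, while isoforms splicing intron 4 had 27.1, 19.9 and 24.6 TPM. Keeping was above splicing there in every library. In Hnrnpa2b1, the isoform keeping the last intron had 134.6 TPM ± 16.9 and isoforms splicing it at its exact ends 96.3 ± 20.6. Hnrnpa2b1-201, Hnrnpa2b1-202, Hnrnpa2b1-207 and Hnrnpa2b1-209 remove the same bases through other splice sites and had 13.2, 69.4, 7.97 and 5.95 TPM. With these counted as spliced, more TPM lacked the last intron than kept it in every library. For Hnrnpa2b1 intron 2 the values were 39.1 TPM ± 5.49 kept and 31.8 ± 8.79 spliced at its exact ends, and the libraries did not agree in direction. Other isoforms remove intron 2 through other splice sites, among them Hnrnpa2b1-202, with 58.6, 66.6 and 83.1 TPM in replicates 1, 2 and 3. That isoform alone stood above the isoform keeping intron 2, at 35.6, 45.4 and 36.3 TPM. More TPM therefore lacked intron 2 than kept it. For Hnrnpk intron 14 the values were 45.1 TPM ± 4.14 kept and 44.6 ± 3.66 spliced, with the direction differing between libraries. The remaining short introns leaned to splicing with exact splicing alone counted. The values were 39.1 against 197.4 TPM for Hnrnpa2b1 intron 6, 27.8 against 68.2 for Hnrnpa3 intron 3 and 38.5 against 70.3 for Hnrnpk intron 15. For Hnrnph1 introns 3 and 10 they were 45.3 against 105.6 and 35.1 against 100.4.

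**Figure D4:**
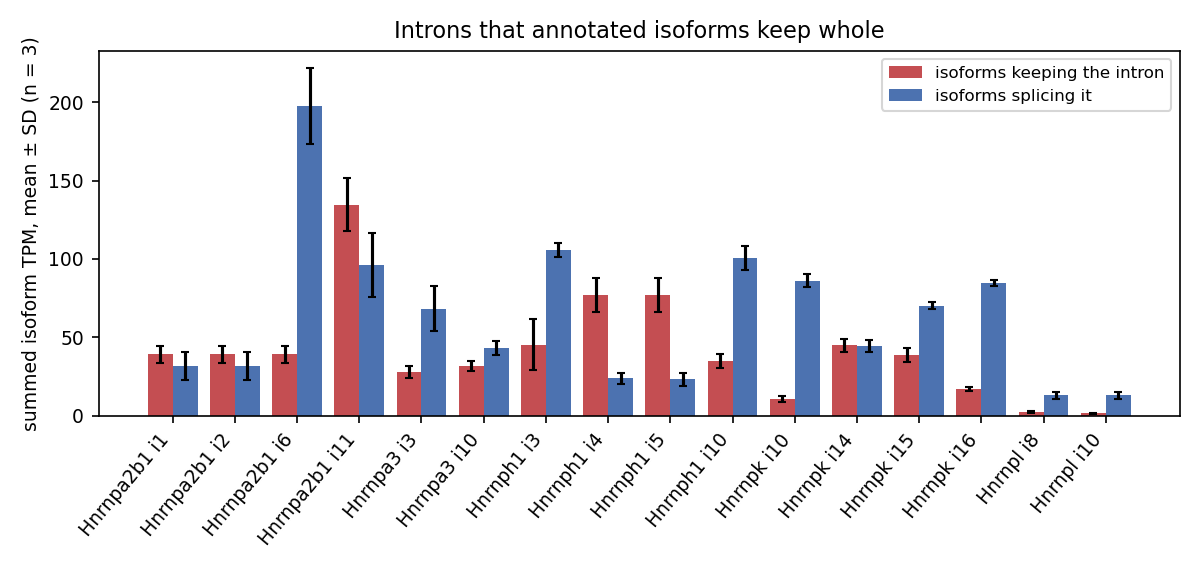
Summed TPM of isoforms that keep an intron whole and of isoforms that splice exactly that intron (y), for the 16 introns that an annotated isoform keeps (x, gene and intron number of the reference isoform, i1 being intron 1). Bars are means ± SD of 3 libraries. Introns 4 and 5 of Hnrnph1 show more kept than spliced TPM, and Hnrnpa2b1 intron 6 the opposite. The last intron of Hnrnpa2b1 has a higher bar for keeping than for exact splicing. Isoforms that remove it through other splice sites, such as Hnrnpa2b1-202, are in neither bar, and the same goes for its introns 1 and 2.

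The 7 introns that lie within the coding sequence, have at most 300 bases and were kept at 20 TPM or more are shown because they are the short kept introns that interrupt a reading frame. Each was read 5′ to 3′ in the sense of the gene from an annotated isoform that keeps it, and the capitals mark the first and last 2 bases, where splicing would cut. Their mm10 positions are chr6:51467296-51467390 and chr6:51466223-51466302 (minus strand) for Hnrnpa2b1, chr2:75661818-75661895 (plus) for Hnrnpa3, chr11:50379624-50379820 and chr11:50383740-50383830 (plus) for Hnrnph1, and chr13:58393869-58394075 and chr13:58393775-58393852 (minus) for Hnrnpk.
Hnrnpa2b1 intron 2: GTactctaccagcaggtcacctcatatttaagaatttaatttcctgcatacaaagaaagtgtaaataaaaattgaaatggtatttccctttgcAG
Hnrnpa2b1 intron 6: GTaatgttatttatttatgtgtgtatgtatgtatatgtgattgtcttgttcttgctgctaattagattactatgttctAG
Hnrnpa3 intron 3: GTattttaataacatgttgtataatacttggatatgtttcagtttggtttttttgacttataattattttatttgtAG
Hnrnph1 intron 3: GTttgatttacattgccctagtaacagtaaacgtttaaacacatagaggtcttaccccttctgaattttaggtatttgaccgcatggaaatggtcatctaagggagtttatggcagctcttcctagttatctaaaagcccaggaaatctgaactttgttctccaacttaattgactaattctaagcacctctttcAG
Hnrnph1 intron 10: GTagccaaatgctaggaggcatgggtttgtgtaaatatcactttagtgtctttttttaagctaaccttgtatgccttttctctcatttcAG
Hnrnpk intron 14: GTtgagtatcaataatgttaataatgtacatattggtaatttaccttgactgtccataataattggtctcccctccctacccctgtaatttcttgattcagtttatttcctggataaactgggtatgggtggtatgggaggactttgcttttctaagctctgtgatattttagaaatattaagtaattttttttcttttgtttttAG
Hnrnpk intron 15: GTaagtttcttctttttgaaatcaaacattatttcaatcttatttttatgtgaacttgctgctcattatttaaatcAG

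All 7 begin with GT and end with AG, the bases of the major class of introns, and they are short and rich in A and T. Their G and C content was 20.5% in Hnrnpa3 intron 3, 24.4% and 32.4% in Hnrnpk introns 15 and 14, 27.5% and 32.6% in Hnrnpa2b1 introns 6 and 2, and 37.4% and 38.1% in Hnrnph1 introns 10 and 3. Several end in a run of pyrimidines before the AG, as in Hnrnph1 intron 10.

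Of the 30 isoforms that are the 3 highest of each gene in the first table, 11 were retained-intron, 3 NMD, 3 processed and 13 coding. For 23 of the 30 the mean TPM of the tables differed by at most 1.5 times. Isoforms high only in the second table could not enter this list. Among them were Hnrnpk-226, with 2.39 TPM in the first and 41.3 in the second, and Hnrnpm-207, with 2.47 and 36.3. Hnrnpa2b1-208 had 134.6 TPM ± 16.9 in the first table and 117.4 ± 4.46 in the second. Hnrnpk-204 had 49.2 ± 3.66 in the first and 77.8 ± 4.02 in the second.

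**Figure D5:**
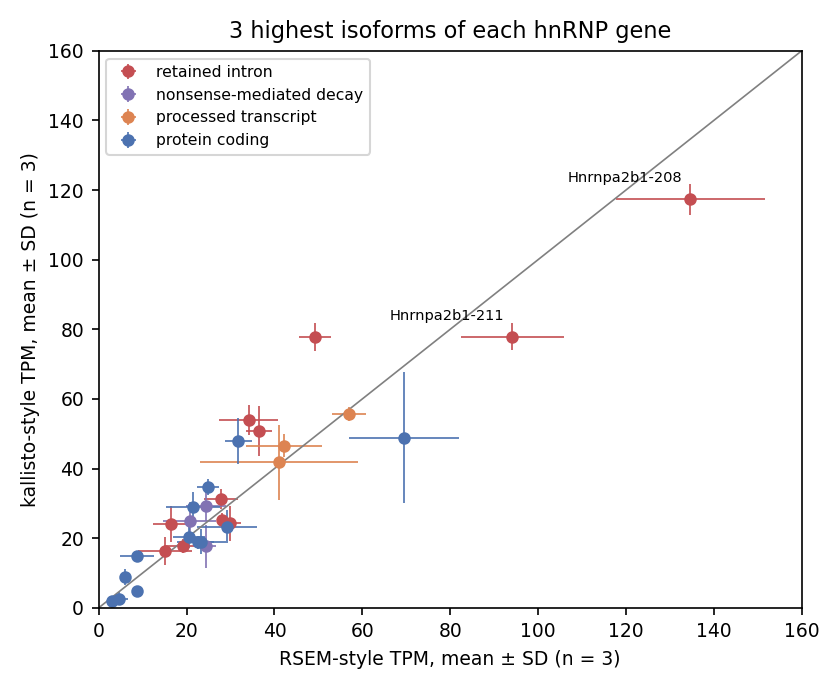
Mean TPM ± SD (n = 3 libraries) in the first deposited isoform table, whose column names are those RSEM writes (x), and in the second, whose names are those kallisto writes (y), for the 3 highest isoforms of each hnRNP gene, coloured by class. The 3 highest were picked by the first table. The line marks equal values, and the 2 highest points, both retained-intron isoforms of Hnrnpa2b1, lie below it.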

How the data were processed

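The labels name the mm10 assembly and the deposited text notes the GENCODE annotation M21. Programs, versions and strand setting were not given in the sources used here. Each deposited library came as 1 gene and 1 isoform table with expected counts and TPM, per the file headers named as RSEM names its columns, and a second isoform table with estimated counts and TPM, under names that kallisto writes. The deposited TPM were scaled over all rows of a table. Rows naming no gene, 1.40%, 0.352% and 0.354% of counts, stayed out of gene totals, and 95 isoforms without a type in the second table were not analysed here. No library was a copy of another (chi-square per degree of freedom 17.1 to 41.4).

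Isoform TPM were summed by annotated class. Log2((class TPM + 0.5)/(coding TPM + 0.5)) was set against 0 in limma 3.58.1 (intercept-only design, two-sided, empirical Bayes with the trend on mean summed TPM) in genes that have both classes and whose summed TPM averaged 1 or more, with Benjamini-Hochberg adjustment over all genes tested. The spread was estimated with edgeR 4.0.16 on expected counts rounded to whole numbers. Introns and sequences came from M21 transcripts, and shared sequence was counted in 31-base words on both strands. Scripts were tested on simulated data. Alternatives varied the pseudocount, filter, scaling, unit, isoform table and libraries used.

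The 10 genes, the family and marker lists and the tests were chosen with earlier results of these data known. All 10 genes are named. Of the family list, values are given for the 6 highest and for the 3 largest ratios in each direction among those past the threshold, with exceptions said to be such, and per hnRNP gene for the 3 highest isoforms. Other isoforms were named after their values were seen. Some items that this rule would name are not reported here.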

Additional observations from a re-analysis of the deposited data

How the results depend on the processing

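Isoform calls depended mainly on the unit. On expected counts, retained-intron isoforms were higher in 2 and lower in 5 of 7 hnRNP genes (22.9% and 58.7% of all genes), and all isoforms that are not coding were higher in 4 and lower in 4 of 9 (21.5% and 59.1%). By the mean per annotated transcript, 1 gene was lower in each of these comparisons (24.2% and 37.2% of all genes). By that mean, NMD isoforms were higher in 2 genes, Hnrnpa1 and Hnrnpl. They were also higher in 2 in the second isoform table, but there in Hnrnpa1 and Hnrnpu (12.6% of all genes in both settings). Single ratios that changed sign on expected counts were, for retained introns, Hnrnpk (-0.78), Hnrnpm (-0.33) and Hnrnpu (-2.99), for NMD Hnrnpu (-1.39), and for all isoforms that are not coding Hnrnpk (-0.75), Hnrnpm (-0.28) and Hnrnpu (-0.47). By the mean per annotated transcript they were Hnrnpa3 (0.73), Hnrnpc (0.19) and Hnrnpu (-0.62) for retained introns, Hnrnpl (1.84) and Hnrnpu (-1.39) for NMD, and Hnrnpa3 (0.73), Hnrnpc (0.19) and Hnrnpu (-0.99) for all isoforms that are not coding; in the second table it was Hnrnpm for retained introns (-0.20). The mean divides by the number of annotated transcripts, and counts are not divided by length. Of 231 recomputed ratios, 210 kept direction and side of the threshold. Leaving out 1 library left 4 to 5 hnRNP genes higher for retained introns, where 31.5% to 32.2% of all tested genes were higher. No other count of hnRNP genes called changed when 1 library was left out.

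Over all genes the number tested changed with the setting. Retained-intron calls were 3201 higher (46.8% of 6847) in the second table, against 1987 (35.5% of 5601). They were 3770 lower (58.7%) on expected counts, 1121 (24.2% of 4627) by the mean and 1116 (32% of 3492) at a filter of 5 TPM, against 1784 (31.9%). NMD calls were 379 higher (12.6% of 3013) in the second table, 224 (12.6% of 1777) by the mean and 77 (6.05% of 1273) at 5 TPM, against 136 (5.55% of 2450). They were 1099 lower (61.8%) by the mean and 1044 (82%) at 5 TPM, against 1892 (77.2%). Calls of all isoforms that are not coding were 4961 higher (52.5% of 9452) in the second table, against 2639 (35.9% of 7349). They were 5058 lower (59.1% of 8565) on expected counts and 1371 (30.3% of 4525) at 5 TPM, against 2281 (31%). At 5 TPM the lower counts go with fewer genes tested.

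The median level of the hnRNP genes, 6.91 on the log2(TPM + 1) scale, was 7.17 in the second table, 9.10 with TPM rescaled over nuclear coding genes and 7.98 as log2(CPM + 1), which are different scales. Retained-intron shares were 40.4% in the second table and 26.6% of counts, coding shares 47.0% of counts and NMD shares 7.88% of counts. The median coefficient of variation was 0.115 to 0.197 when 1 library was left out. Ratios of isoforms rest on estimates that cannot be checked without the reads. No paired analysis was possible because the series has 1 group.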
